A study of Mus musculus with 12 samples.

Results

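The mouse Schlafen family, here Slfn1, Slfn2, Slfn3, Slfn4, Slfn5, Slfn8 and Slfn9, was followed in P815 tumors that did or did not carry a light-switched interferon gamma construct. The genes were taken by name, not by measured values, and make up 7 of the 32288 rows in each library. All 7 had a summed count of at least 10 over the 12 libraries and were among the 18804 genes tested. Slfn14 and Slfnl1, further Schlafen-like genes, had at most 2 counts and 0 counts in any library and were not tested, and the pseudogene Slfn10-ps was not analysed here.

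P815 is a mastocytoma line, a mast cell tumor of DBA/2 mice, and each engineered line was grown from a single cell clone. P815-IFNG carries the blue-light transactivator GAVPO under the EF-1α promoter, a 5×UAS cassette for murine Ifng, Cxcl10 and a secreted luciferase, and the mRuby and firefly luciferase reporters. P815-M carries the mRuby and firefly luciferase reporters alone, so the lines differ in the transactivator as well as in the cytokines. Each DBA/2 mouse, of either sex, bore a single subcutaneous tumor. In the light group the mice received blue light for 12 h a day over 6 days, in the dark group they received none, and 1 library was made per tumor from 3 mice in each of the 4 groups (P815-IFNG light, P815-IFNG dark, P815-M light, P815-M dark). The deposited values were read counts per gene from whole tumors, so that fewer cells of a type and less RNA per cell cannot be told apart.

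Schlafen genes are grouped by length. Slfn1 and Slfn2 encode short proteins, Slfn3 and Slfn4 intermediate ones, and Slfn5, Slfn8 and Slfn9 long ones that add a helicase-like domain to the core shared by the family. Many members are induced by interferons, which act through receptor-bound JAK kinases, STAT proteins and interferon regulatory factors on short promoter elements, and the family is known for its part in keeping T cells quiescent and in myeloid differentiation.

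All 7 genes lie in 1 cluster on chromosome 11 (GRCm38, GENCODE M21). In order along the chromosome these were Slfn5 at chr11:82951349-82964840 on the plus strand, Slfn9 at chr11:82978390-82991830 and Slfn8 at chr11:83002158-83020810 on the minus strand, then Slfn2 at chr11:83065112-83070678, Slfn1 at chr11:83116849-83122670, Slfn4 at chr11:83175186-83190216 and Slfn3 at chr11:83191330-83215154 on the plus strand. The longest coding sequences held 337 codons in Slfn1, 378 in Slfn2, 602 in Slfn4, 640 in Slfn3, 884 in Slfn5 and 910 in both Slfn8 and Slfn9.

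The promoters of Slfn1, Slfn2, Slfn5 and Slfn8, each called between the lines in at least 1 fit below, and of Slfn9, for its likeness to Slfn8, are shown to let the interferon elements be seen, as 250 bases before to 50 after the start of transcription (RefSeq, GRCm38.p6), each read 5′ to 3′ on the strand of its gene. Capitals mark matches to GAAANNGAA, the core of the interferon-stimulated response element bound by interferon regulatory factors, searched on both strands together with TTCNNNGAA, the core of the gamma-activated site. The windows are Slfn5 at chr11:82951852-82952151 (plus), Slfn8 at chr11:83020761-83021060 (minus), Slfn9 at chr11:82991781-82992080 (minus), Slfn2 at chr11:83064862-83065161 (plus) and Slfn1 at chr11:83116570-83116869 (plus).
Slfn5: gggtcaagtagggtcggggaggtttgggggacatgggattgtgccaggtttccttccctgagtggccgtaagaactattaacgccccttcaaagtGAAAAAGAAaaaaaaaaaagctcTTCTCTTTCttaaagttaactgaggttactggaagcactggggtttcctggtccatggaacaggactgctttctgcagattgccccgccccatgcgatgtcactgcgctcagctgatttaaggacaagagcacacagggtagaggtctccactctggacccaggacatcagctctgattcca
Slfn8: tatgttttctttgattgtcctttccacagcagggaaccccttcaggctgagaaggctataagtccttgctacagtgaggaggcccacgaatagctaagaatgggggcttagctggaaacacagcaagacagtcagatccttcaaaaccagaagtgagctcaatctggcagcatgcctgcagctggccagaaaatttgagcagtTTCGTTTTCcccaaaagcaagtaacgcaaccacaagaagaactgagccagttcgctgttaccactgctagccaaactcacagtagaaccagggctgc
Slfn9: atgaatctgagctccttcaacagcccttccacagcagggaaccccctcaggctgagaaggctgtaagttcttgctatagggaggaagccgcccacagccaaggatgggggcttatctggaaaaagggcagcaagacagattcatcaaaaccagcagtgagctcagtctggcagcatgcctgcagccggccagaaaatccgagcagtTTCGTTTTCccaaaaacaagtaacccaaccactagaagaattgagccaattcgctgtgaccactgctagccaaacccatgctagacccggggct
Slfn2: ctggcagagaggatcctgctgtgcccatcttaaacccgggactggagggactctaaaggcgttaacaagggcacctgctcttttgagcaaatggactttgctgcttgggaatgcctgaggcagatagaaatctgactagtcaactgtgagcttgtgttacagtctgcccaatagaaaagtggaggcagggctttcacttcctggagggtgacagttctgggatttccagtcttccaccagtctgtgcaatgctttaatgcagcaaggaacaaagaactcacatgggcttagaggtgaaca
Slfn1: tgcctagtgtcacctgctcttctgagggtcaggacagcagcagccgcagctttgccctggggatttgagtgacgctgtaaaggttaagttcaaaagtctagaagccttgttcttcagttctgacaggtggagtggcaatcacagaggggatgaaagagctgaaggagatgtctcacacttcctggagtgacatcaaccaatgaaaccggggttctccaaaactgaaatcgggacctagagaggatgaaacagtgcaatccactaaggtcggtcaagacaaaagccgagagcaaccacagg
Slfn5 held 2 matches to the response element core, which began 155 and 132 bases before the RefSeq start and lay on opposite strands. The Slfn5 window lies inside the GENCODE span of the gene, which begins at chr11:82951349, so these positions hold for the RefSeq start alone. Slfn8 and Slfn9 each held TTCGTTTTC, the core read on the opposite strand, 47 and 44 bases before the start, and their windows were identical at 80.8% of aligned positions, against at most 53% for any other pair of members. Slfn8 has a further annotated start whose overlapping window held the same match, so 4 of the 8 windows of the family held the core. That number counts the Slfn8 site in both of its windows, and the genes concerned were Slfn5, Slfn8 and Slfn9. The core was present in 2812 of 32851 mouse promoters of this length (8.56%). No window of a member matched the gamma-activated core, which was present in 8.3% of promoters. Slfn1, Slfn2, Slfn3 and Slfn4 matched neither. A match is a run of letters, not a bound site.

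The libraries fell into 2 kinds. In 10 of them 2211234 to 2946792 reads were counted on genes, whereas replicate 3 of P815-IFNG light held 41473500 and replicate 3 of P815-IFNG dark 42338096, and these deep libraries are given apart below. A count of 3 corresponds to 1.02 to 1.36 CPM (counts scaled to a common library total) in the 10 libraries and to 0.0709 to 0.0723 CPM in the deep ones. The deep libraries also stood apart in composition. In them mt-Nd6, the mitochondrial gene read from the opposite strand to most others, took 3.56% and 3.85% of mitochondrial counts. Elsewhere it took 29% to 47.9%. Of 11 mast cell markers 10 were tested, and their summed level was 10239 and 7918 CPM in the deep libraries. In the other libraries that sum was 1779 to 2704 CPM. No tissue without mast cells was set beside this sum, so it is not taken as a sign of cell origin. Single markers were missing from groups in light and in dark. Fcer1a, a chain of the IgE receptor, had 0 counts in every P815-IFNG dark and P815-M dark library. Ms4a2 had 0 counts in every P815-M light library, and Fcer1a, Ms4a2 and Tpsab1 had 0 in the P815-IFNG light libraries of ordinary depth. The row named Ifng was at 1.76 to 14.9 CPM in P815-IFNG light, 0.67 to 1.86 CPM in P815-IFNG dark, 0.479 to 2.08 CPM in P815-M light and 0 to 1.23 CPM in P815-M dark. The P815-IFNG light and dark ranges thus overlapped. The paper states that the knock-in sequences and their annotations were added to its mouse reference. How reads shared by the construct and host Ifng were assigned was not tested, so this row is not taken as a measure of the construct.

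Strand is a limit on every value below. The library kit marks strand, and its first reads run opposite to the transcript. The study's methods state default HTSeq settings, under which a read is counted for a gene on the strand of the read. Counts on the opposite strand and counts on the gene's own strand would differ in mt-Nd6, in antisense genes and in the total, and these were the values that set the 10 libraries apart from the deep ones. Whether both kinds of library were counted on the same strand was not tested. The levels, differences and calls of all 7 members, Slfn1, Slfn2 and Slfn8 included, carry that limit wherever they rest on the 10 libraries, and comparisons within the 10 libraries do not remove it.

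Levels are given as CPM after TMM scaling (edgeR), and levels of different genes are compared only per kilobase of exon. Over the 10 libraries the medians were 6.21 CPM per kb for Slfn5, 3.49 for Slfn2, 3.11 for Slfn8, 3.08 for Slfn1, 1.62 for Slfn9, 0.659 for Slfn3 and 0.255 for Slfn4. Slfn5, a nuclear long member known as an interferon target, was therefore at the top of the order in these libraries and the intermediate members Slfn3 and Slfn4 at its end. Slfn5 exceeded Slfn2 in 8 of the 10 libraries, Slfn2 exceeded Slfn8 in 5 and Slfn8 exceeded Slfn1 in 5, so Slfn2, Slfn8 and Slfn1 were not ordered beyond their spread. Slfn1 exceeded Slfn9 in 9, Slfn9 exceeded Slfn3 in 10 and Slfn3 exceeded Slfn4 in 7. By the mean of both deep libraries the order was Slfn2, Slfn8, Slfn9, Slfn5, Slfn3, Slfn1, Slfn4, with Slfn1 (3.74 CPM per kb) above Slfn3 (2.67) in the deep light library and below it (0.443 against 3.44) in the deep dark one. Against the mean of the other P815-IFNG libraries, the mean CPM of the deep pair was 3.59 times as high for Slfn3, 3.08 times for Slfn9 and 2.31 times for Slfn4, but 0.494 times for Slfn5 and 0.263 times for Slfn1. The depth class thus moved members in both directions, and its part in each comparison between groups is given beside it.

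**Figure D1:**
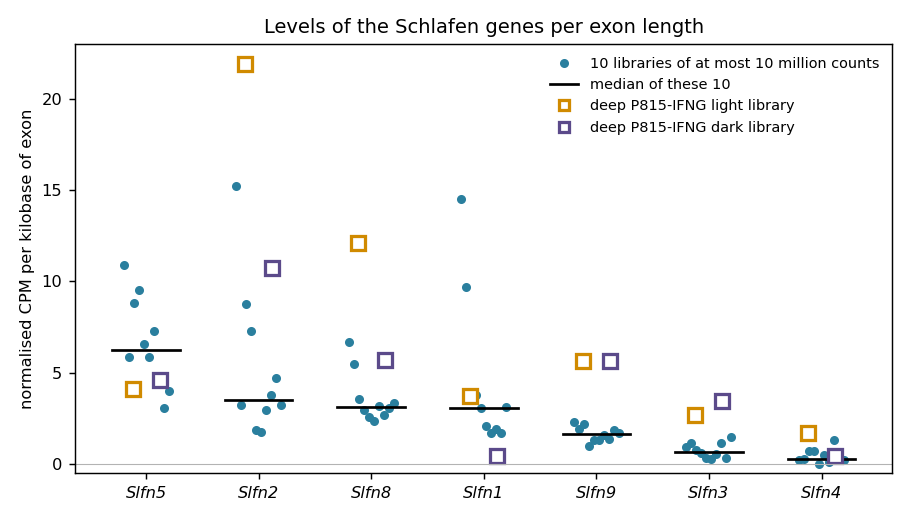
Normalised CPM per kilobase of exon (y axis) of each Schlafen gene (x axis, ordered by the median), with 1 point for each of the 10 libraries of ordinary depth, a line at their median and squares for the deep P815-IFNG light and dark libraries. Slfn5 has the highest median (6.21) and Slfn4 the lowest (0.255), and the squares lie below the Slfn5 median but above all points for Slfn9 and Slfn3.

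The effect of light in tumors that carry the construct was examined in P815-IFNG. The short member Slfn1, which holds back growth of developing T cells when forced on, was at 26.9, 18.1 and, in the deep library, 6.97 CPM in light, and at 7.14, 7.04 and, in the deep library, 0.826 CPM in dark. The light libraries were higher within each kind of library, but the groups overlapped when the kinds were pooled, because the deep light library lay just below the dark libraries of ordinary depth. Slfn8, a long member, was at 27.3, 22.4 and, deep, 49.4 CPM in light and at 14.6, 12.1 and, deep, 23.3 CPM in dark, again higher in light within each kind of library and overlapping over all 6. The log2 fold change of light against dark was 1.83 (SE 0.76) for Slfn1 and 0.99 (SE 0.37) for Slfn8, and both had an unadjusted p below 0.05 (0.0331 and 0.0214), but the adjusted p was 1 for each in edgeR's quasi-likelihood test over all 18804 genes with Benjamini-Hochberg adjustment.

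Slfn2, whose loss makes T cells leave quiescence, was at 25.3, 5.37 and, deep, 36.4 CPM in light and at 14.6, 12.1 and, deep, 17.7 CPM in dark. One light library lay below and the others above all dark libraries, and the log2 fold change was 0.61 (SE 0.54). Slfn4, expressed mainly in myeloid cells, had 2 counts in each light library of ordinary depth and 9 and 8 counts in the dark ones (0.804 and 0.976 against 2.79 and 2.68 CPM), yet 293 counts in the deep light and 72 in the deep dark library (6.78 against 1.61 CPM). The direction of Slfn4 therefore turned between the kinds of library, with a log2 fold change of 0.42 over all libraries and of -1.58 (SE 1.14) over the 10. Slfn3, the other intermediate member, was at 3.22, 3.9 and, deep, 9.12 CPM in light and at 2.48, 2.01 and, deep, 11.7 CPM in dark. Its log2 fold change was -0.01. Slfn9, the near neighbour of Slfn8, was at 13.7, 11.2 and, deep, 33.6 CPM in light against 13, 5.7 and, deep, 33.5 CPM in dark, with a log2 fold change of 0.16. Slfn5 was at 69.2, 37.1 and, deep, 25.9 CPM in light and at 55.9, 60.3 and, deep, 29 CPM in dark, with a log2 fold change of -0.14. The ranges of both groups overlapped for all 5 of these genes.

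In P815-IFNG, 0 of the 7 members were called between light and dark, where called means an adjusted p of at most 0.05 and a log2 fold change of at least 1 in size, and 0 of the 18804 genes tested (0%) were called in that comparison. At an unadjusted p below 0.05 there were 2 members and 409 genes. The fold change was above 0 for 5 of 7 members with a median of 0.42, beside a median of -0.02 over all genes. No member's groups of 3 libraries were free of overlap with higher values in light, as 0.994% of genes were. Among the 2 against 2 libraries of ordinary depth Slfn1, Slfn3 and Slfn8 did not overlap and were higher in light, as were 18.2% of genes. Slfn4 did not overlap there either and was lower in light, as were 21% of genes. Without the deep libraries 0 members were called, of 0.0059% of genes, with adjusted p of 0.246 for Slfn1 (log2 fold change 1.66) and 0.361 for Slfn8 (0.89). With the depth class added as a term, the adjusted p of Slfn1 was 0.0966 (log2 fold change 2.17, SE 0.40) and that of Slfn8 was 0.158 (0.98, SE 0.22). After ComBat-seq, which adjusts the counts for depth class, Slfn1 alone among the members was called, with a log2 fold change of 2.12 and an adjusted p of 2.18e-04, in a table in which 0.798% of genes were called. That fit took the adjusted counts with no term for depth class, so its p-values leave out the uncertainty of the adjustment. The ComBat-seq values below share this limit.

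**Figure D2:**
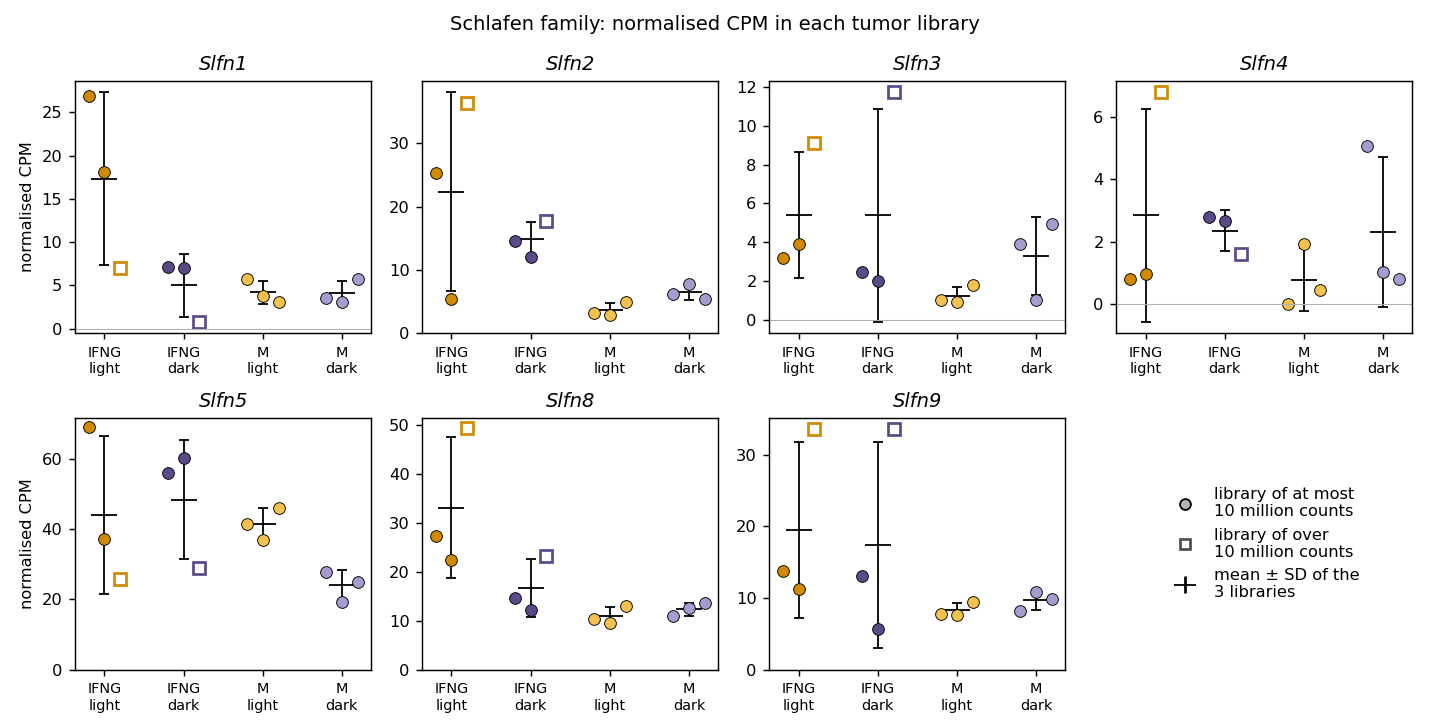
Normalised CPM (y axis, 1 scale per gene) of the 7 Schlafen genes in each tumor library, grouped as P815-IFNG light, P815-IFNG dark, P815-M light and P815-M dark. Squares are the deep libraries, circles the others, and bars the mean ± SD of 3 libraries; for Slfn1 and Slfn8 the light values exceed the dark values of the same kind of library in P815-IFNG and lie beside each other in P815-M.

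In P815-M, which lacks the transactivator and the cytokine cassette, the same light regimen was compared with dark. Slfn5 was at 41.5, 36.9 and 46.1 CPM in light and at 27.7, 19.3 and 25.1 CPM in dark. The groups did not overlap and the exact permutation p was 0.1, the smallest that 3 against 3 libraries can give. The log2 fold change was 0.79 (SE 0.40, adjusted p = 1 in edgeR's quasi-likelihood test). Slfn2 was lower in light, at 3.11, 2.87 and 4.92 CPM against 6.25, 7.81 and 5.35 CPM in dark, again without overlap and with an exact permutation p of 0.1. Its counts were 6 to 16 per library and its log2 fold change was -0.82 (SE 0.61). Slfn5 was thus the 1 member of 7 without overlap and higher in light, as 10.1% of all genes were, and Slfn2 the 1 member without overlap and lower in light, as 8.06% of genes were.

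The remaining members of the P815-M comparison overlapped between light and dark. Slfn1 was at 3.13 to 5.71 CPM in light and at 3.13 to 5.76 CPM in dark, with a log2 fold change of 0.02. Slfn8 was at 9.58 to 13 CPM in light and 10.9 to 13.6 CPM in dark (-0.17), and Slfn9 at 7.66 to 9.39 CPM against 8.2 to 10.9 CPM (-0.22). Slfn3 had 2 to 4 counts in light and 2 to 12 in dark (-1.38) and Slfn4 0 to 4 counts in light and 2 to 13 in dark (-1.55), close to the level of 3 counts. Of the 7 members 0 were called, as of all genes (0%), and also 0 in the 10 libraries, where 0.927% of genes were called. In P815-M 2 of 7 fold changes were above 0, with a median of -0.22, beside 0.01 over all genes.

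Whether light acted differently on the members in P815-IFNG and P815-M was tested directly as an interaction. It was above 0 for 6 of the 7 members, with a median of 1.37 beside -0.01 over all genes. The difference was 1.81 (SE 1.09) on the log2 scale for Slfn1 and 1.15 (SE 0.53) for Slfn8, with adjusted p of 1 for both, and 0 members were called, as of all genes (0%). An effect of light on Slfn1 or Slfn8 that was particular to P815-IFNG was therefore not shown. Averaged over both lines, light against dark gave fold changes above 0 for 3 of 7 members and 0 calls, and 0% of genes were called. Permuting the light labels within each line over all 12 libraries gave exact two-sided p of 0.145 for Slfn1, 0.245 for Slfn8, 0.25 for Slfn4, 0.345 for Slfn5, 0.5 for Slfn3, 0.535 for Slfn2 and 0.96 for Slfn9, where 0.005 is the smallest that 400 arrangements allow.

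The lines were then compared under the same light condition. In light, Slfn1 was at 6.97 to 26.9 CPM in P815-IFNG and at 3.13 to 5.71 CPM in P815-M, Slfn2 at 5.37 to 36.4 against 2.87 to 4.92 CPM, and Slfn8 at 22.4 to 49.4 against 9.58 to 13 CPM. Slfn9 (11.2 to 33.6 against 7.66 to 9.39 CPM) and Slfn3 (3.22 to 9.12 against 0.958 to 1.79 CPM) were also higher in every P815-IFNG library. These 5 members did not overlap between the lines, as did not 9.23% of all genes in the same direction, and each had an exact permutation p of 0.1. Slfn5, at 25.9 to 69.2 against 36.9 to 46.1 CPM, and Slfn4, at 0.804 to 6.78 against 0 to 1.92 CPM, overlapped.

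The log2 fold change of P815-IFNG against P815-M in light was 2.63 (SE 0.60) for Slfn2, 2.13 (SE 0.88) for Slfn3, 2.02 (SE 0.78) for Slfn1, 1.95 (SE 1.19) for Slfn4, 1.60 (SE 0.38) for Slfn8, 1.26 (SE 0.61) for Slfn9 and 0.08 (SE 0.39) for Slfn5. All 7 were above 0 and their median was 1.95, beside 0.15 over all genes. In edgeR's quasi-likelihood test Slfn1, Slfn2, Slfn3 and Slfn8 were the 4 members with an unadjusted p below 0.05, as were 1276 of all genes, and the adjusted p was 0.629 for each. None of the 7 was called, of 0.016% of genes. This call depended on how the deep libraries, both of them P815-IFNG, were treated.

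With the depth class as a term, which is estimated within P815-IFNG alone, Slfn1, Slfn2 and Slfn8 were called higher in P815-IFNG light than in P815-M light, at log2 fold changes of 2.66 (SE 0.47, adjusted p = 0.01), 2.26 (SE 0.49, 0.0436) and 1.22 (SE 0.26, 0.0411) in edgeR's quasi-likelihood test, and 0.436% of genes were called. ComBat-seq gave the same 3 calls, in a table with 1.34% of genes called, at log2 fold changes of 2.53, 2.33 and 1.23. DESeq2 on the unadjusted counts called Slfn2 (2.49, adjusted p = 0.0241) and Slfn8 (1.48, 0.0272), beside 0.223% of genes. In the 10 libraries alone, 2 of P815-IFNG light against 3 of P815-M light, Slfn1 was called (2.42, SE 0.40, adjusted p = 0.014), of 0.23% of genes called, whereas Slfn8 had 1.18 (SE 0.28, adjusted p = 0.105) and Slfn2 2.08 (SE 0.54, adjusted p = 0.139). The difference for Slfn3 fell from 2.13 to 1.44, that for Slfn9 from 1.26 to 0.59 and that for Slfn4 from 1.95 to 0.15 without the deep libraries.

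**Figure D3:**
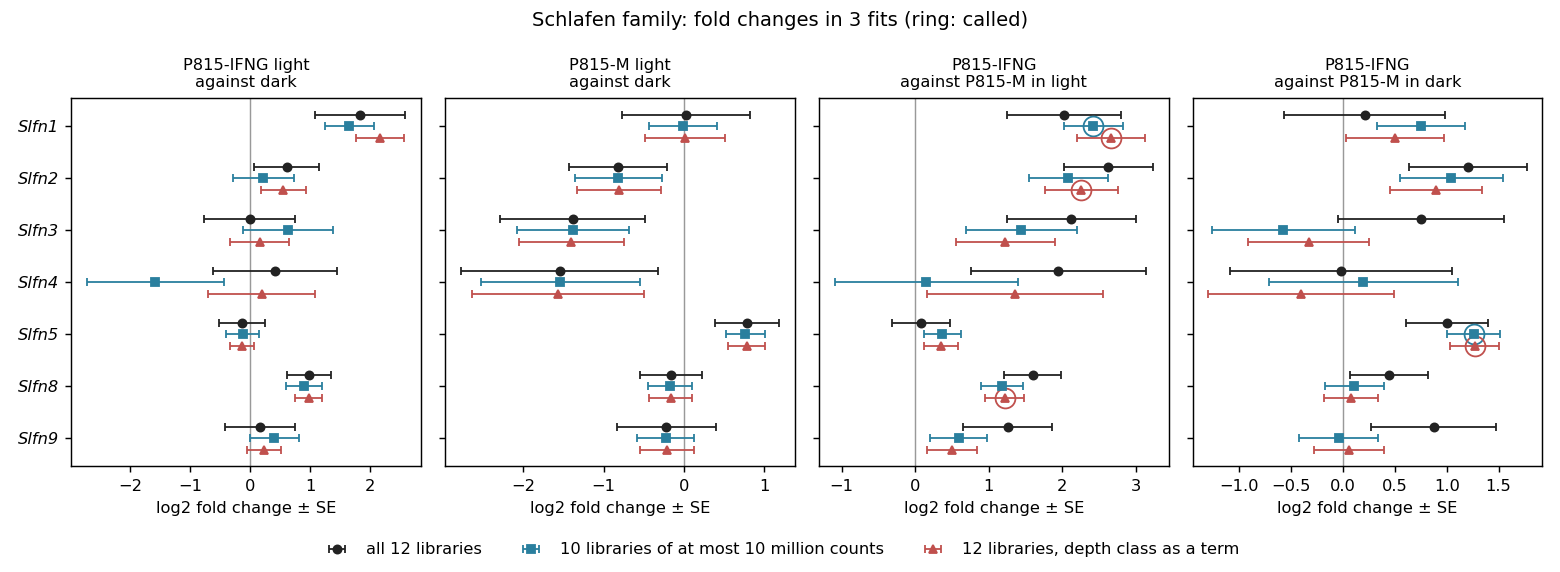
Log2 fold change with its SE (x axis) for each Schlafen gene (y axis) in the 4 comparisons, from all 12 libraries, from the 10 libraries of ordinary depth and from 12 libraries with depth class as a term; a ring marks a call. Rings lie on Slfn1, Slfn2 and Slfn8 in light and on Slfn5 in dark, in the comparison of the lines, and on no member with all 12 libraries and no term.

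In dark, where the cassette is not switched on by light, Slfn5 and Slfn2 stood apart between the lines. Slfn5 was at 55.9, 60.3 and, deep, 29 CPM in P815-IFNG and at 27.7, 19.3 and 25.1 CPM in P815-M, and Slfn2 at 14.6, 12.1 and, deep, 17.7 CPM against 6.25, 7.81 and 5.35 CPM. Neither overlapped, as 10.9% of genes did not in this direction, and the exact permutation p was 0.1 for both. The log2 fold change was 1.00 (SE 0.40) for Slfn5 and 1.20 (SE 0.57) for Slfn2. The other members overlapped, at 0.45 for Slfn8, 0.87 for Slfn9, 0.75 for Slfn3, 0.21 for Slfn1 and -0.02 for Slfn4. None was called, of 0.0106% of genes, and the median of 0.75 stood beside 0.33 over all genes.

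Slfn5 in dark was called in the 10 libraries, with depth class as a term and after ComBat-seq, but not in every fit. DESeq2 on the unadjusted counts gave a log2 fold change of 0.89 (SE 0.49, adjusted p = 0.622). Leaving out the deep dark library alone gave 1.27 in edgeR, without a call. Where Slfn5 was called, its log2 fold change was 1.26 (SE 0.25, adjusted p = 0.0181 in edgeR's quasi-likelihood test) in the 10 libraries, where 2.19% of genes were called, 1.27 (SE 0.24, adjusted p = 0.0076) with the term, where 1.54% were, and 1.26 (adjusted p = 0.00265) after ComBat-seq, where 2.89% were. In the 10 libraries Slfn9 stood at -0.04 and Slfn3 at -0.58 (SE 0.69) in dark, so that their positive values over all libraries came with the deep library. The comparisons in light and in dark share no library, but each shares its libraries with the comparisons of light against dark.

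Summed over the 7 genes, the level was 99.1 to 168 CPM in P815-IFNG light, 102 to 118 CPM in P815-IFNG dark, 63.7 to 78.7 CPM in P815-M light and 55.7 to 65.6 CPM in P815-M dark. Every P815-IFNG library, of either kind, lay above every P815-M library. The sum is led by Slfn5 in most libraries and is not independent of the values above.

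Slfn5 shares its locus with Slfn5os, an antisense transcript at chr11:82942341-82960681 on the minus strand, and 559 exon bases, 8.84% of those of Slfn5 and 50.7% of those of Slfn5os, overlap. Slfn5os was at 0.972 and 1.85 CPM in the deep libraries and at 100 to 276 CPM in the 10 others. Its level was 0.0375 to 0.0638 times that of Slfn5 in the deep libraries and 3.07 to 6.97 times that of Slfn5 elsewhere. Slfn5os was higher in P815-IFNG than in P815-M in dark in the 10 libraries (0.90, SE 0.23, adjusted p = 0.0462 in edgeR's quasi-likelihood test) and after ComBat-seq (0.99, adjusted p = 0.024), both below the fold threshold, and was called under the depth term (1.01, SE 0.24, adjusted p = 0.0261), whereas Slfn5 was called in all of these. Light against dark in P815-M gave 0.95 (SE 0.21, adjusted p = 0.0412) for Slfn5os in the 10 libraries, also below the fold threshold. Pearson's r of log2 CPM between both genes was 0.67 over these 10 libraries, which share depth class, as a description. Both genes lie on opposite strands, so how strand was counted bears on them directly, as set out above for all members, and the calls for Slfn5 carry that limit.

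**Figure D4:**
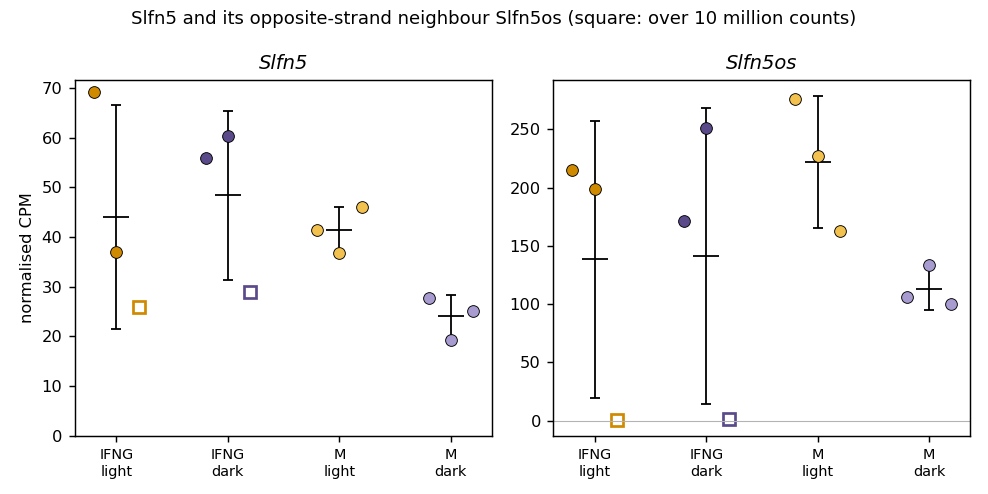
Normalised CPM (y axis) of Slfn5 and of the antisense gene Slfn5os in each library by group (x axis), with squares for the deep libraries, circles for the others and bars for the mean ± SD of 3 libraries. Slfn5os lies at 100 to 276 CPM in the circles and at 0.972 and 1.85 CPM in the squares, whereas Slfn5 differs far less between the kinds of library.

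Near-identical copies also limit some members. Of the 50-base windows of the exons, 15.6% in Slfn3, 14.6% in Slfn8, 11.5% in Slfn9 and 10.8% in Slfn4 occur unchanged in another gene, most often in Slfn4 for Slfn3, in Slfn3 for Slfn4 and in Slfn10-ps for Slfn8 and Slfn9. The share was 4.27% in Slfn2, 3.37% in Slfn5 and 0.606% in Slfn1. Reads from such windows may have been dropped or split, so that the values of Slfn3, Slfn4, Slfn8 and Slfn9 are less certain than those of Slfn1.

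The Schlafen values were set beside the pathway known to induce them. Of 18 interferon signalling genes (ligands, receptors, kinases, STAT and IRF factors and inhibitors) 17 were tested. In light against dark 11 were higher in P815-IFNG and 12 in P815-M, with medians of 0.26 and 0.15, and 0 were called in either. Irf1, a transcription factor induced by interferon gamma, was at 132 ± 85.8 CPM (SD, n = 3) in P815-IFNG light and 52.4 ± 34.8 CPM in P815-IFNG dark, and at 81.9 ± 10.3 and 41.4 ± 20.5 CPM in P815-M. Its mean was higher in light in both lines. The log2 fold change was 1.33 (SE 0.58) in P815-IFNG and 0.98 (SE 0.58) in P815-M, with an adjusted p of 1 for each in edgeR's quasi-likelihood test.

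Of 20 interferon-stimulated genes 18 were tested (Mx1 and Mx2 were not analysed here). In light against dark 18 were higher in P815-IFNG and 15 in P815-M, with medians of 1.33 and 0.75, and between the lines 18 were higher in P815-IFNG in light and 15 in dark, with medians of 0.93 and 0.28. None was called in these 4 comparisons. Ifit1, which binds foreign RNA, was at 6.76 ± 1.08 CPM (SD, n = 3) in P815-IFNG light, 2.6 ± 1.26 CPM in P815-IFNG dark, 2.43 ± 1.02 CPM in P815-M light and 0.975 ± 0.395 CPM in P815-M dark. Oasl2, a gene of the oligoadenylate synthetase family, was at 42.7 ± 18.6, 22.9 ± 13.4, 32 ± 5.08 and 13.9 ± 3.96 CPM in the same order. Both had higher means in light in both lines. With depth class as a term, light averaged over both lines called Irf1 and 7 of the 18 stimulated genes (Zbp1, Gbp3, Gbp2, Oasl2, Rtp4, Irgm1 and Iigp1) as higher, of 0.792% of genes called, and 0 of the 7 Schlafen genes, of which Slfn1 had the lowest adjusted p (1.09, SE 0.32, adjusted p = 0.0842 in edgeR's quasi-likelihood test). In P815-IFNG and P815-M the light effects of Slfn1 were 1.83 and 0.02, those of Slfn8 0.99 and -0.17 and those of Slfn5 -0.14 and 0.79. The differences between lines in the light effect were 0.10 (SE 0.93) for Ifit1 and -0.29 (SE 0.68) for Oasl2, and none of these genes was called for that difference.

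Markers of the cells that a tumor can hold moved with some of these values. The summed level of 11 macrophage and monocyte markers was 1546 to 1781 CPM in P815-M light and 720 to 1002 CPM in P815-M dark, without overlap, all 11 had higher values in light, with a median log2 fold change of 0.83, and 0 were called; Slfn5 moved the same way. Between the lines in dark, 8 of the 11 were higher in P815-IFNG with a median of 0.64 and a summed level of 675 to 1775 CPM in P815-IFNG, in which the deep library had the lowest. C1qa and C1qb, subunits of complement C1q made by macrophages, were called there in the 10 libraries, as Slfn5 was, and C1qa also in P815-M light against dark. In that comparison of the 10 libraries in dark, the fat genes Adipoq, Plin1 and Fabp4, the muscle gene Myh4, the fibroblast gene Dcn and the receptor gene Ifngr1 were called higher in P815-IFNG as well. There 7 of 8 muscle and adipocyte markers (median 2.01), all 8 fibroblast and endothelial markers (median 0.91), 10 of 11 macrophage markers (median 0.91) and 7 of 10 T cell markers (median 1.14) had higher values in P815-IFNG. The part of these cells in the Slfn5 values was not tested.

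For Slfn1, Slfn2 and Slfn8 in light, 1 of the 11 macrophage markers and 3 of 10 T cell markers were higher in P815-IFNG than in P815-M, with medians of -0.24 and -0.54, over all 12 libraries without a depth term. With the term, under which those 3 members were called, 7 of 11 (median 0.12) and 5 of 10 (median 0.05) were higher, and Myh4 was called lower. T cell markers summed to 10.2 to 24.5 CPM in P815-IFNG light, 13.3 to 45.3 in P815-IFNG dark, 18.7 to 33.1 in P815-M light and 11.5 to 32.8 in P815-M dark, so the groups overlapped. NK cell markers summed to 20.5 to 89.9, 36 to 51.9, 44.1 to 61.7 and 30.2 to 45.7 CPM in the same order, B cell markers to 0.625 to 4.88, 0.313 to 9.38, 3.63 to 6.26 and 3.29 to 7.03 CPM, and neutrophil markers to 48.7 to 211, 64.9 to 199, 41.5 to 57.7 and 60.9 to 73.4 CPM. The neutrophil genes S100a8, S100a9 and Mmp8 had 0 counts in the 4 P815-IFNG libraries of ordinary depth, so the high ends of the neutrophil range were the deep libraries. Fibroblast and endothelial markers summed to 3800 to 6168 CPM in P815-IFNG light and 4582 to 12490 CPM in P815-IFNG dark, and muscle and adipocyte markers to 122 to 209 and 198 to 528 CPM, against 4799 to 5768 and 95.5 to 572 CPM over both P815-M groups. None of the markers was called in the 4 comparisons over all 12 libraries without a depth term. Myh4 had 0 counts in every P815-IFNG light library. With the term it was called lower in P815-IFNG light than in dark and than in P815-M light. In those comparisons 2 and 82 of 18804 genes were called. Myh4, Dcn, C1qa and C1qb were called higher in P815-IFNG than in P815-M in dark, where 290 genes were called. C1qa and Lyz2 were called higher in light in P815-M, where 194 genes were called. The part of cell makeup in the Schlafen values was not tested.

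The genes whose log2 CPM followed each member most closely over the 10 libraries were listed as a description, over 11997 or 11998 genes with a mean of at least 5 CPM. Slfn8 was followed most closely by Slfn1 (Pearson r = 0.90), then by Zbtb5 and Pik3ip1 (both 0.89). Slfn1 was followed by Cdk14, Kmt2b (both 0.92) and Ccdc117 (0.91), and Slfn2 by Mfsd10 and Dpp7 (both 0.94). Slfn5 was followed by Lgals3bp, Laptm4a (both 0.97) and Eif4e3 (0.96). Slfn3 was followed by Arpp19 (0.94), Cope (0.91) and Rps27l (0.89), Slfn4 by Ccm2 (0.97), Dpp9 (0.94) and Nenf (0.93), and Slfn9 by Rpl29, Pwwp2a and Pdcd7 (all 0.82). Among the members themselves, Slfn8 and Slfn9 had r = 0.71 and Slfn2 and Slfn8 r = 0.65, Slfn5 had r = 0.56 with Slfn1, 0.53 with Slfn2, 0.39 with Slfn8 and 0.03 with Slfn9, and Slfn4 had r between -0.18 and 0.28 with every other member. The points share libraries, groups and depth, and Slfn3 and Slfn4 rest on 13 counts or fewer in each of these libraries.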

How the data were processed

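RNA from whole P815 tumors was sequenced in 12 libraries, 3 mice in each of 4 groups, groups being taken from the sample labels. Per the labels, poly(A) libraries were made with a stranded TruSeq kit, and the authors aligned reads to mm10 with STAR 2.7.9a and deposited raw HTSeq 0.13.5 read counts per gene, 1 file per library; the labels also name DESeq2 1.32.0. The count totals were 2211234 to 2946792 in 10 libraries and 41473500 and 42338096 in the other 2, so low members rest on few counts in the 10 and intervals are wide there. The study's methods state default HTSeq settings for all libraries; whether both kinds of library were counted on the same strand was not tested. The ComBat-seq batches were not given in the sources used here, so depth class (deep or ordinary) stood in for batch.

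Removed before testing were 13 mitochondrial rows and genes with a summed count below 10, which left 18804 genes. edgeR 4.0.16 in R 4.3.3 was run with TMM scaling and the quasi-likelihood test (glmQLFit, glmQLFTest) over all 12 libraries with 1 mean per group and no batch term, with Benjamini-Hochberg adjustment over all genes tested. Calls needed an adjusted p not above 0.05 together with a log2 fold change of at least 1 in size. SE is the log2 fold change divided by the root of F. Exact two-sided permutation tests used log2 CPM (prior count 2), with labels permuted within line. Each mouse is 1 sample, so p-values measure the spread between mice of single clones. The alternatives were DESeq2 1.42.0, DESeq2 size factors, filterByExpr, no filter, mitochondrial rows kept, the compared libraries alone, a replicate block, depth class as a term, ComBat-seq (sva 3.50.0), the 10 libraries alone, leaving out each library in turn and dropping the minimum fold change; ComBat-seq followed by DESeq2 was chosen after seeing the data. Scripts were tested on simulated data.

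The members, gene lists and tests were chosen with earlier results of these data known, so no pattern counts as independent. Genes named were all members, other Schlafen genes, genes whose exons overlap a member, the 3 genes that followed each member most closely, and in each interferon list the genes with the smallest p for light averaged over both lines; Ifng, mt-Nd6, C1qa, C1qb and single markers were named after their values were seen, and some genes that the rule names are not reported here.

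Replicate numbers are shared between groups and were taken from the sample titles; the numbers in the sample descriptions differ from them in 5 of the 6 P815-IFNG samples, so pairing, block and left-out libraries go by title. Deviations from group means correlated at 0.578 to 0.874 between P815-IFNG light and dark, where replicate 3 is the deep library in both, and at -0.179 to 0.19 in all other pairs of groups. In P815-IFNG the depth class goes with the number, so the correlations there cannot show whether the numbers pair the samples. The block changed no call of a member. Promoters came from RefSeq GRCm38.p6 (8 windows for 7 members) and coordinates from GENCODE M21; protein sequences were not used here.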

Additional observations from a re-analysis of the deposited data

How the results depend on the processing

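Of 793 fold changes of members recomputed under the alternatives, 727 kept their direction and their side of the threshold, 48 turned direction and 18 newly passed it. The number of members called stayed at 0 in each comparison with the size factors of DESeq2, with filterByExpr (which left out Slfn4), without a filter, with mitochondrial rows kept, with the compared libraries alone, with no minimum fold change, with the replicate block and with each library left out. In P815-IFNG light against dark it was 1 after ComBat-seq and 1 after ComBat-seq with DESeq2, an alternative chosen after seeing the data. In P815-IFNG against P815-M in light it was 2 with DESeq2, 3 with depth class as a term, 3 after ComBat-seq, 3 after ComBat-seq with DESeq2 and 1 in the 10 libraries. In dark it was 1 with the term, 1 after ComBat-seq, 1 after ComBat-seq with DESeq2 and 1 in the 10 libraries. The number of members with an exact permutation p of at most 0.05 for light over both lines was 0, and 0 to 1 with each library left out, Slfn4 reaching 0.05 (log2 difference -1.35) without P815-IFNG light replicate 3.

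For Slfn3 in P815-IFNG light against dark the log2 fold change was 0.082 with DESeq2, 0.0878 with size factors, 0.050 with filterByExpr, 0.0007 with the compared libraries alone, 0.22 with the replicate block (pairing), 0.16 with the depth term, 0.21 after ComBat-seq, 0.23 after ComBat-seq with DESeq2 and 0.64 in the 10 libraries, and -0.58 to 1.23 with each library left out. For Slfn4 there it was -1.58 in the 10 libraries and -1.34 to 0.79 with each library left out, for Slfn5 -0.66 to 0.17 and for Slfn9 -0.43 to 1.01. For Slfn1 in P815-M it was -0.012 with the compared libraries alone, -0.18 with the block, -0.0039 after ComBat-seq, -0.010 in the 10 libraries and -0.25 to 0.34 with each library left out. Between the lines in light, Slfn5 was at -0.022 with the block and -0.44 to 0.38 with each library left out. In dark, Slfn1 was at -0.22 with the block and -0.20 to 0.77 with each library left out, Slfn3 at -0.33 with the term, -0.38 after ComBat-seq, -0.42 after ComBat-seq with DESeq2, -0.58 in the 10 libraries and -0.57 to 1.15 with each library left out, Slfn4 at 0.20 in the 10 libraries and -0.42 to 1.31, and Slfn9 at -0.028 after ComBat-seq with DESeq2, -0.039 in the 10 libraries and -0.041 to 1.28 (0.87 over all libraries and -0.041 without P815-IFNG dark replicate 3). For the difference between lines in the light effect, Slfn4 was at -0.047 in the 10 libraries and Slfn9 at -0.18 to 1.26 with each library left out. The cause was not tested, beyond that the 10 libraries leave 2 samples in each P815-IFNG group. The block changed no call.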
